A study of Saccharomyces cerevisiae with 21 samples.

Results

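The 50 genes described here encode proteins of the large (60S) ribosomal subunit of the budding yeast Saccharomyces cerevisiae. They were taken by systematic name as the RPL genes listed as holding an intron, with RPL22A, RPL22B and RPL30 left out, and are 50 of the 6571 coding sequences counted. All 50 matched the R64 annotation of the genome (sacCer3), in which 49 have an intron within the coding sequence. RPL29 (YFR032C-A) has none there, so the name of the list does not hold for that gene, and its values are given separately. The list holds 23 pairs of duplicated genes with an A and a B copy, and 4 genes with no second copy: RPL25, RPL28, RPL29 and RPL39.

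Ribosomal protein genes are among the most highly transcribed genes of growing yeast, and they hold a large share of the organism's introns. Splicing begins when the U1 snRNP pairs the 5′ end of its RNA with the 5′ splice site, the first bases of the intron. The U1 proteins U1-C (encoded by YHC1) and Luc7 touch that duplex and steady it. Most large-subunit proteins are made from a pair of genes that arose in an ancient whole-genome duplication, and the introns of the copies have diverged more than their coding sequences.

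Polyadenylated RNA was sequenced in 21 libraries, 3 from each of 7 groups. Wildtype cells and cells carrying a humanized yeast U1-C were each sampled at low density (OD600 near 0.4). An earlier experiment sampled both strains at high density, with an OD600 of about 5 in wildtype and of about 8 in humanized cells, so density and experiment cannot be told apart and the strains differed in density there. Cells with a Luc7 triple mutant carry the low density label too. A Luc7 degron strain, in which Luc7 carries a tag for induced destruction, was labelled minus IAA or plus IAA. Libraries are called depleted or undepleted below by these labels alone, since Luc7 protein was not measured here. The labels describe a 6 hour treatment with beta-estradiol and IAA for depletion, and whether the minus IAA cells received beta-estradiol is not given. The mutated positions of the triple mutant, the strain backgrounds and the medium of each group are not given either, nor whether the 3 libraries of a group came from separate cultures. If they did not, the p-values measure only technical spread.

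Libraries held from 28457299 to 46835775 assigned reads. In TMM-normalised CPM (explained below), YHC1 ran from 26.6 to 29.3 in humanized and from 32.5 to 37.2 in wildtype cells at low density, and a read count over this gene does not show which version of the protein was made. LUC7 ran from 88.3 to 141 CPM without IAA and from 112 to 161 CPM with IAA, and since a degron removes protein, this mRNA does not check the depletion. The triple mutant had no read on URA3 and 514 to 855 CPM on LEU2, whereas wildtype and humanized low-density cells had none on LEU2 and 644 to 816 on URA3, so marker genes differed between these strains beside the mutation. In the degron strain LEU2 stood at 598, 562 and 848 CPM without IAA and at 173, 149 and 212 CPM with it, a log2 fold change of −1.91. URA3 stood there at 3.29, 0 and 0 CPM without IAA and at 26.1, 0.56 and 0 CPM with it. The part of the marker genes in the results was not tested. Values are shares of the polyadenylated RNA, so less of a transcript per cell cannot be told apart from more of the other transcripts.

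The 49 genes with introns hold 51 introns, because RPL7A and RPL7B have 2 each. Their lengths ran from 147 bases in RPL2A to 561 bases in RPL27A, with a median of 414. The site GTATGT begins 43 of the 51 (84.3%), against 204 of the 279 nuclear introns of the genome (73.1%). The exceptions were GTACGT in RPL16A, RPL16B, RPL27A and RPL27B, GTGAGT in RPL20A, GTATGC in RPL40A and RPL43B, and GTATGA in RPL43A. The branch site TACTAAC was found on the sense strand in 48 of the 51 introns. Not holding those letters were the intron of RPL19A and the first introns of RPL7A and RPL7B. The DNA complement of the 5′ end of U1 RNA, read from the SNR19 gene, is AAGGTAAGTAT, which a 5′ splice site matches to differing degrees.

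The following 5′ splice sites belong to the pairs on which the results below turn and to the genes with a site other than GTATGT. Each shows 10 exon bases, the first 6 intron bases in capitals and 8 further intron bases, from the RefSeq R64 genome, on the strand of the gene, 5′ to 3′.
RPL31A: gcacaaaagaGTATGTgaaagaat
RPL31B: gcacaaaagaGTATGTcgaaatta
RPL40A: acatgcaaatGTATGCaccatatc
RPL40B: aaatgcaaatGTATGTtacggcga
RPL16A: gtcattgatgGTACGTaagatttt
RPL16B: gttattgatgGTACGTaaaaaatt
RPL20A: tgcggaaaaaGTGAGTaaatacct
RPL20B: caaagaaaaaGTATGTaatagaat
RPL43A: agacaaaaatGTATGAtatattac
RPL43B: acaaaaaaatGTATGCatataata
RPL27A: ggtaaagttgGTACGTatcatttt
RPL27B: ggtaaagttgGTACGTaaatttaa
RPL2A: taagcaatggGTATGTcagcaccg
RPL2B: tgaacaatggGTATGTttttatta
RPL33A: tcccatagatGTATGTtaaaactg
RPL33B: tcccatagacGTATGTtatgaaat
RPL7A: tggccgctgaGTATGTatacgaaa
RPL7B: tgtccactgaGTATGTcaaaaact
RPL18B: ttcctagctcGTATGTattgaaat

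The copies of RPL31 share the 10 exon bases and the 6 capitals and differ in the bases after them. Those of RPL16 and of RPL27 have the same 6 capitals within the pair. In RPL20, RPL40 and RPL43 the copies differ within the 6 capitals themselves. The introns lie at chrIV:322283-322703 on the + strand for RPL31A and chrXII:931350-931698 on the − strand for RPL31B. Those of RPL40 lie at chrIX:68716-69149 (+) for copy A and chrXI:618375-618742 (−) for copy B. Those of RPL16 lie at chrIX:99096-99385 (−) and chrXIV:494525-494973 (−), and those of RPL2 at chrVI:221268-221414 (−) and chrIX:316772-317171 (+). Copies A and B of RPL20 have theirs at chrXIII:753743-754219 (−) and chrXV:900768-901193 (−), those of RPL43 at chrXVI:654168-654570 (+) and chrX:608307-608581 (+), and those of RPL27 at chrVIII:126552-127112 (+) and chrIV:1401801-1402184 (+). For RPL33 they are chrXVI:282141-282665 (+) and chrXV:778860-779386 (−), and RPL18B has its intron at chrXIV:64019-64450 (−). The first introns of RPL7A and RPL7B, shown here, are chrVII:365527-365985 (−) and chrXVI:173163-173571 (+).

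Levels between genes are compared in TPM, the deposited per-length unit in which every library has the same total. In wildtype cells at low density the highest was RPL42B at 7370 ± 333 TPM (SD, n = 3), followed by RPL31A at 6895 ± 546 and RPL36B at 6662 ± 266. Libraries of these neighbours overlapped, so their order is not settled. The lowest were RPL7B at 350 ± 8.91 TPM and RPL18B at 469 ± 9.41 TPM, and these did not overlap each other. RPL29 stood at 848 ± 60.3 TPM and RPL39 at 865 ± 10.9 TPM, overlapping each other. RPL39 has a coding length of only 156 bases, of which Salmon counted an effective length of 22 to 28 bases over the libraries, so its TPM rests on few usable positions.

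The share of all TPM taken by the 50 genes is a description of the groups. In wildtype cells at low density it was 15.3 to 15.9%, in humanized cells 13.9 to 14.2% and in the triple mutant 14.5 to 15.4%. At high density wildtype libraries held 14.3 to 15.3% and humanized ones 12.3 to 12.4%. Undepleted degron cells held 13.8 to 14.2% and depleted ones 4.62 to 5.65%. The humanized libraries lay below the wildtype ones at each density without overlap, and the depleted libraries lay below those of every other group.

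**Figure D1:**
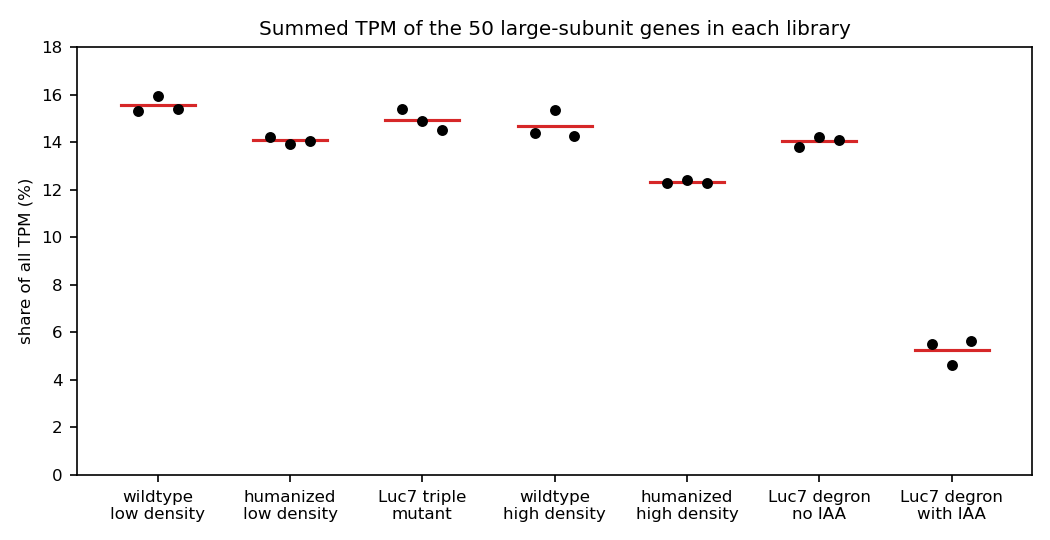
Summed TPM of the 50 genes as a share of all TPM (vertical axis, %), 3 libraries a group (points) with the group mean (line). The depleted degron libraries sit at 4.62 to 5.65%, and the other groups lie between 12.3 and 15.9%.

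In the Luc7 degron strain the transcripts of all 50 genes were lower in libraries with IAA than in those without it, as shares of the RNA, with a median log2 fold change of −1.85 and a range from −2.93 (RPL31B) to −1.02 (RPL40A). All 50 were called lower and 0 higher, where a call is an adjusted p below 0.05 from edgeR over all genes tested. Over all genes tested 34.3% were called lower and 34.0% higher, with a median log2 fold change of 0.01. In each of the 50 genes, every depleted library lay below every undepleted one. Over all genes tested the 2 groups did not overlap, in either direction, in 4534 of 6156. Counts remained at 50 lower when any 1 library was left out, and in every other setting tried.

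**Figure D2:**
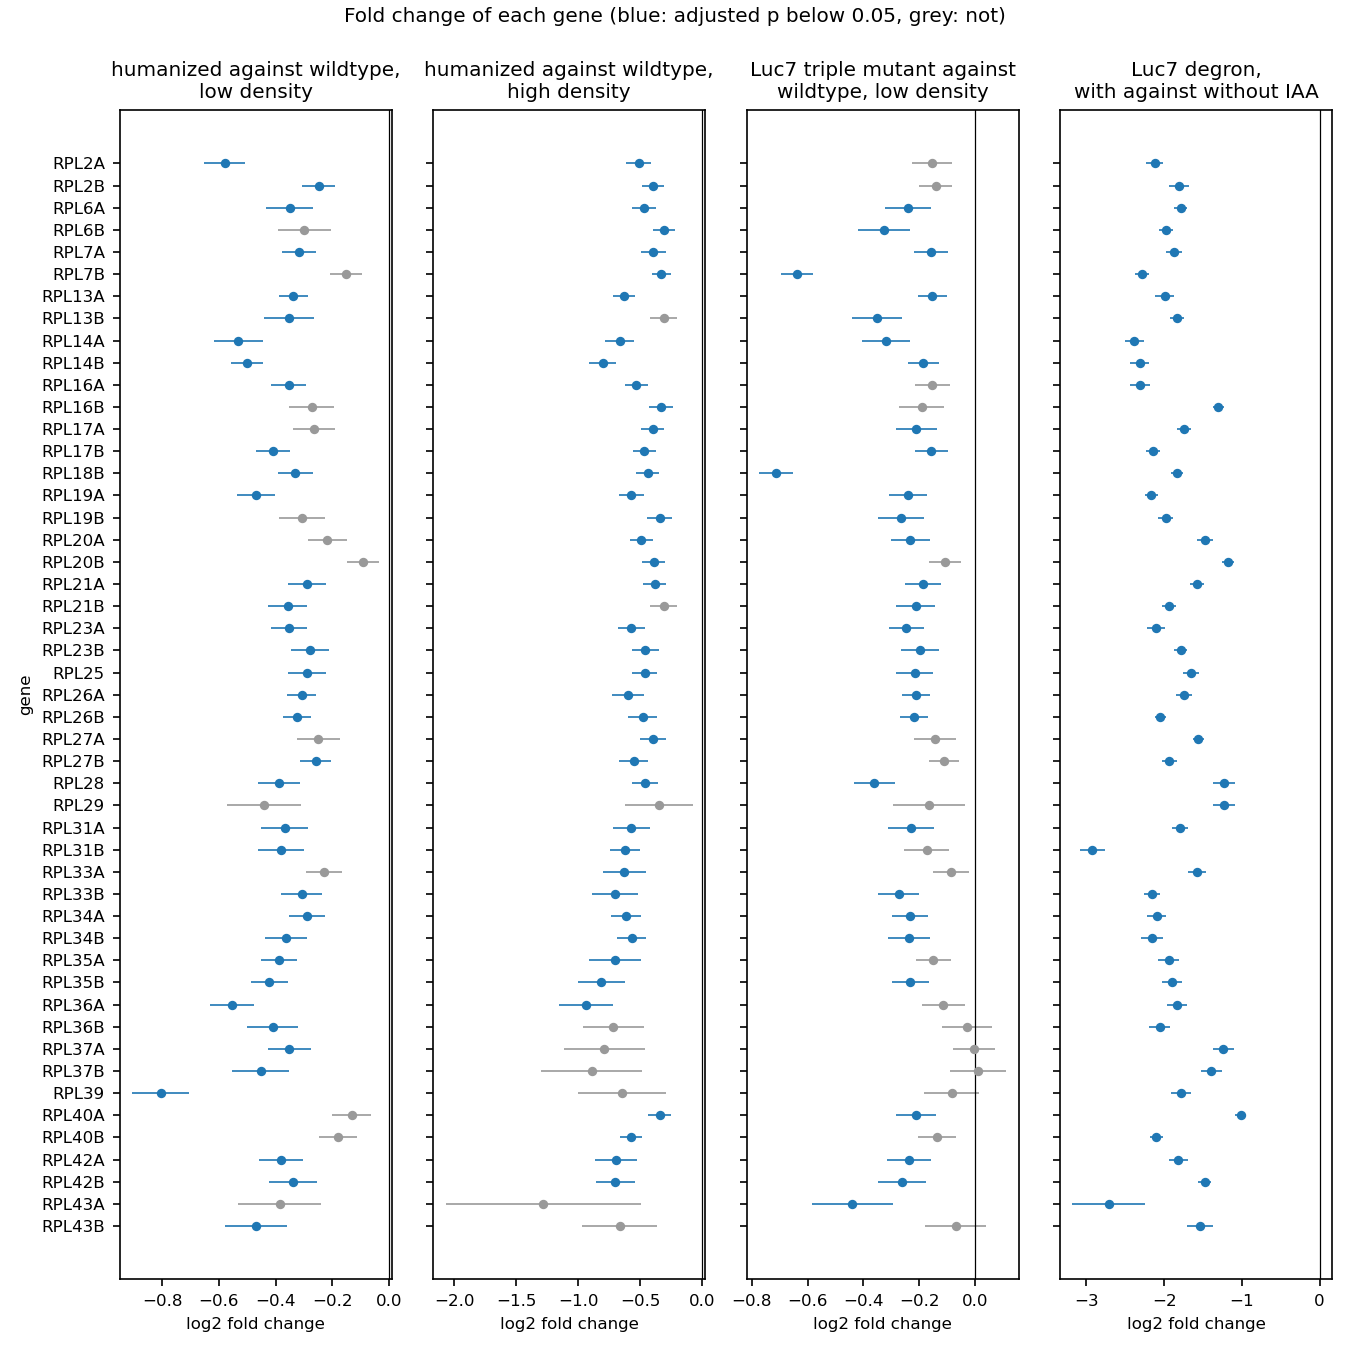
Log2 fold change (horizontal axis, its own scale in each panel) with its standard error for 49 of the 50 genes (vertical axis) in 4 comparisons. Blue points passed an adjusted p of 0.05 and grey points did not, and all 49 are blue and negative in the depletion panel.

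CPM is a gene's counts as a share of a library scaled to the same total in every library, here after TMM scaling. TMM aligns libraries in a way that a few strongly changing genes disturb little, and it was computed within the fit of the comparison named. The strongest fall was that of RPL31B (YLR406C), one copy of a protein near the exit of the nascent peptide tunnel. Undepleted libraries 1 to 3 held 315, 331 and 310.0 CPM of it, and depleted libraries 52.5, 30.3 and 43.4 CPM. Its log2 fold change was −2.93 ± 0.16 (SE, n = 3 against 3, adjusted p = 1.71e-07), a 7.60-fold fall, and the groups lay far apart. The other copy, RPL31A (YDL075W), held 1244, 1272 and 1245 CPM without IAA and 394, 297 and 394 CPM with it. That was a log2 fold change of −1.79 ± 0.10, and its groups did not overlap either.

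RPL43A (YPR043W) stood at 219, 158 and 86.8 CPM without IAA and at 41.7, 9.14 and 20.6 CPM with it. The undepleted libraries spread widely, and its log2 fold change of −2.71 carried an SE of 0.47. Its other copy RPL43B changed by −1.54 ± 0.17 on the log2 scale. The share of the pair's TPM on copy A ranged from 23.9 to 50.7% among undepleted libraries and from 10.8 to 28.4% among depleted ones. The balance of these copies therefore varied within each group, and the cause was not tested.

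RPL14A (YKL006W) and RPL14B (YHL001W), whose coding sequences differ in 3.597% of aligned bases, fell alike. Copy A held 764, 941 and 847 CPM without IAA and 183, 134 and 173 CPM with it, a log2 fold change of −2.38 ± 0.12. Copy B held 278, 326 and 304 CPM and then 70.5, 49.0 and 63.4 CPM, a log2 fold change of −2.31 ± 0.12. In both copies depleted replicate 2 was the lowest library.

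At the other end stood RPL40A (YIL148W), which encodes ubiquitin fused to a large-subunit protein. It held 853, 912 and 836 CPM without IAA and 446, 389 and 451 CPM with it, a log2 fold change of −1.02 ± 0.07 or a 2.02-fold fall. Its other copy RPL40B (YKR094C), which encodes the same protein, held 633, 596 and 596 CPM and then 151, 122 and 154 CPM, a log2 fold change of −2.10 ± 0.09. RPL40A therefore fell least of the 50 while its copy fell more than the median gene. RPL20B (YOR312C) changed by −1.18 ± 0.08 from 1032, 938 and 868 CPM to 434, 384 and 435 CPM, and RPL20A by −1.47 ± 0.10.

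Among the genes with no second copy, RPL28 (YGL103W), the gene in which resistance to cycloheximide arises, held 1088, 1630 and 1367 CPM without IAA and 620, 494 and 625 CPM with it. Its log2 fold change was −1.23 ± 0.14. RPL29, which has no intron, held 30.3, 45.7 and 40.7 CPM and then 17.2, 14.9 and 17.8 CPM, a log2 fold change of −1.23 ± 0.14. RPL25 (YOL127W), whose protein lies at the tunnel exit, went from 1634, 1831 and 1704 CPM to 590, 459 and 596 CPM, a log2 fold change of −1.65 ± 0.10. RPL39 (YJL189W), a small protein of the tunnel wall, went from 72.9, 86.9 and 90.0 CPM to 26.3, 19.1 and 27.2 CPM, a log2 fold change of −1.79 ± 0.13. In all 4 the groups did not overlap, as in 4534 of all 6156 genes tested, in either direction.

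For each pair the question was also whether its copies changed by different amounts. The test (diffSpliceDGE of edgeR, each pair as a unit with its copies as parts) covered 60 pairs of ribosomal protein and other genes, and with IAA 30.0% of the 60 were called. Of the 23 large-subunit pairs, 5 were called: RPL31, RPL40, RPL16, RPL33 and RPL7. In 4 of the 5 it was copy B that fell more, with a log2 difference, A minus B, of 1.13 for RPL31 (adjusted p = 2.29e-07), 1.08 for RPL40 (1.55e-06), 0.58 for RPL33 (0.00410) and 0.41 for RPL7 (0.0182). RPL16 was the exception at −1.01 (6.98e-06), copy A falling more. The largest difference of the 23 was that of RPL43 at −1.17, copy A falling more, and it was not called (adjusted p = 0.219).

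**Figure D3:**
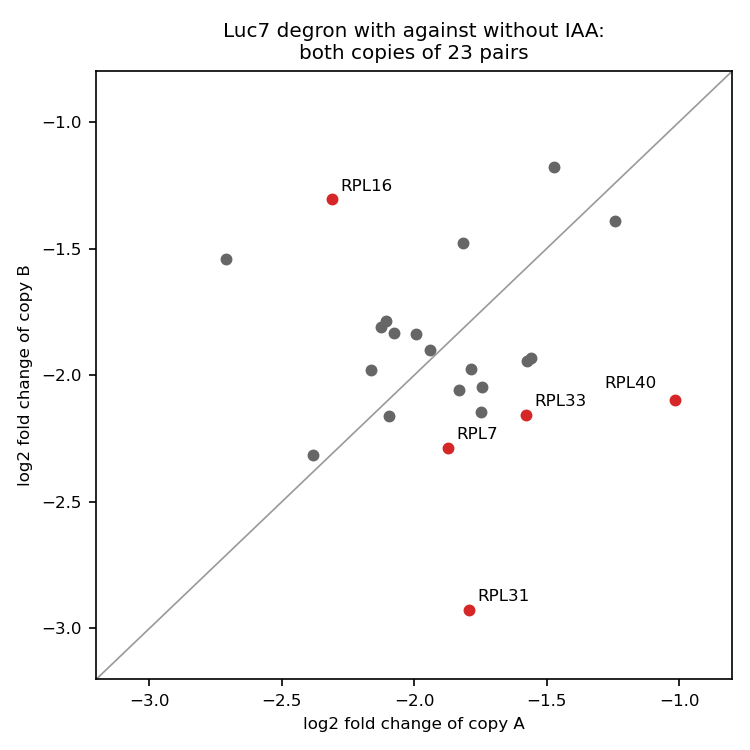
Log2 fold change of copy A (horizontal axis) and copy B (vertical axis) with against without IAA for 23 pairs, with the line of equal change in grey. The 5 called pairs are red, and RPL31 and RPL40 lie farthest below the line at differences of 1.13 and 1.08.

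The shares of the TPM of a pair show the same measurements within each library. RPL40A made up 57.4, 60.5 and 58.4% of its pair without IAA and 74.7, 76.2 and 74.6% with it. RPL31A made up 79.8, 79.3 and 80.1% and then 88.2, 90.8 and 90.1%. The share of RPL16A fell from 31.0, 35.2 and 34.4% to 21.9, 17.99 and 19.9%. In none of these 3 pairs did the libraries of the 2 groups overlap. The copies of RPL40 differ in 6.20% of aligned coding bases, those of RPL31 in 8.77% and those of RPL16 in 13.5%, the last being the most of any of the 23 pairs.

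RPL16A (YIL133C) went from 737, 886 and 832 CPM to 187, 132 and 176 CPM, a log2 fold change of −2.31 ± 0.13, and RPL16B (YNL069C) from 1696, 1671 and 1629 CPM to 688, 611 and 724 CPM, a change of −1.30 ± 0.07. RPL33B changed by −2.16 ± 0.10 and RPL33A by −1.58 ± 0.12. RPL7B changed by −2.29 ± 0.09 and RPL7A by −1.87 ± 0.10. Leaving out depleted replicate 2 raised the number of called pairs to 11, and the call of RPL7 was lost without undepleted replicate 3 (adjusted p = 0.105) or depleted replicate 3 (adjusted p = 0.236). Reads that fit both copies are divided by Salmon, so each pair was also tested as 1 sum: all 23 sums were called lower, with a median log2 fold change of −1.89. The share called over the whole table was not recorded for the fits of sums, here or in the comparisons below. Their counts therefore stand without a background, and in the fit of single genes 34.3% of all genes tested were called lower in the depletion.

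**Figure D4:**
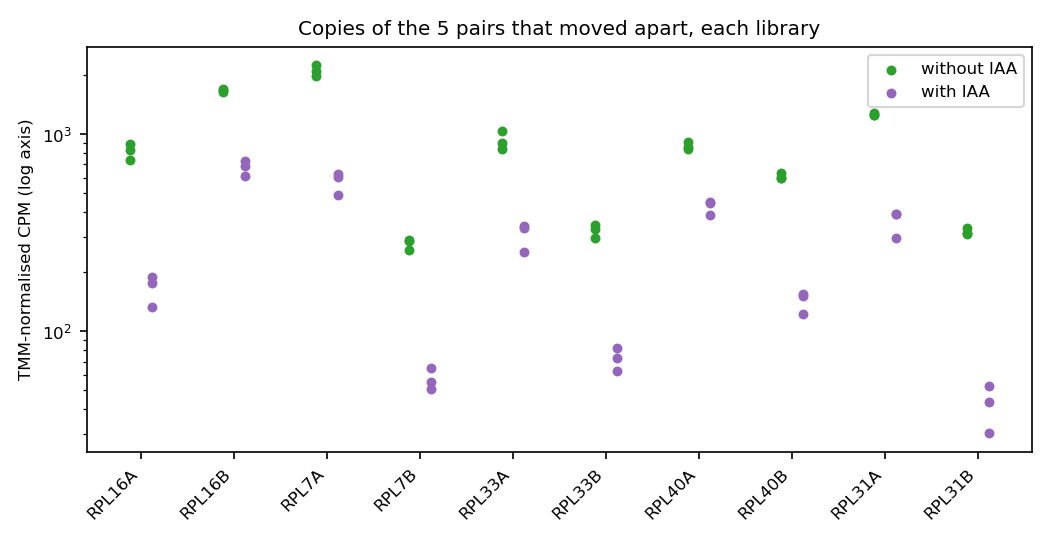
TMM-normalised CPM (vertical log axis) of both copies of the 5 called pairs in each of 3 libraries without IAA (green) and with IAA (purple). The points of RPL31B drop from 310.0 to 331 CPM to 30.3 to 52.5 CPM, while those of RPL40A drop from 836 to 912 CPM to 389 to 451 CPM.

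In humanized cells at low density 37 of the 50 genes were called lower than in wildtype and 0 higher, against 3.88% of all genes tested called lower and 2.67% called higher. The 50 genes had a median log2 fold change of −0.35 and all 50 values were negative, RPL40A turning to 0.05 in limma on log2(TPM + 1) and to 0.01 when coding length and GC content entered as an offset, against a median of 0.00 over all genes tested. Values ran from −0.81 in RPL39 to −0.09 in RPL20B. The count fell to 12 without humanized replicate 2, to 13 without humanized replicate 3 and to 23 without wildtype replicate 1. It was also 13 in limma on log2(TPM + 1), 19 with an offset for effective length, and 8 in 1 fit of all 7 groups.

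RPL39 held 40.4, 46.8 and 41.1 CPM in wildtype and 25.1, 21.3 and 27.0 CPM in humanized libraries. Its log2 fold change was −0.81 ± 0.10 (SE, n = 3 against 3, adjusted p = 0.00151), a 1.75-fold fall, and the groups did not overlap. In TPM, which takes in its short effective length, it held 866.5, 853.8 and 875.5 and then 601.7, 526.0 and 604.8. Over 19 other settings its log2 fold change ran from −0.88 to −0.54, and the call was lost in 1. RPL2A (YFR031C-A), which encodes a protein next to the peptidyl transferase centre and holds the shortest intron of the list, held 1977, 2370 and 1940 CPM and then 1450, 1365 and 1392 CPM. That was a log2 fold change of −0.58 ± 0.07.

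The other copy RPL2B (YIL018W) held 3094, 3526 and 3130 CPM in wildtype and 2849, 2683 and 2676 CPM in humanized cells, a change of −0.25 ± 0.06. RPL2 was the only one of the 23 pairs whose copies were called as moved apart (A minus B −0.33, adjusted p = 0.0325), while 13.3% of the 60 pairs tested were called. RPL2A made up 38.7, 39.9 and 37.9% of the pair's TPM in wildtype and 33.4, 33.5 and 34.2% in humanized libraries, without overlap. The call was lost without wildtype replicate 1, without any 1 of the humanized libraries, or without replicate 2 of the triple mutant, a group fitted together with these (adjusted p from 0.0638 to 0.126), while the difference stayed between −0.36 and −0.30 in every such fit. These copies differ in 3.66% of coding bases, with a longest identical run of 188 bases.

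RPL36A (YMR194W) held 276, 300 and 288 CPM in wildtype and 212, 182 and 194 CPM in humanized cells, a log2 fold change of −0.55 ± 0.08. RPL36B, its other copy, changed by −0.41 ± 0.09. RPL14A held 1452, 1798 and 1396 CPM and then 1119, 1041 and 1054 CPM, a change of −0.53 ± 0.09, and RPL14B changed by −0.50 ± 0.06. None of these groups overlapped. Over all genes tested 1942 of 6107 did not overlap, in either direction, in this comparison. Wildtype replicate 2 was the highest wildtype library for RPL39, RPL2A, RPL36A and RPL14A.

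The called genes that fell least were RPL2B, RPL27B, RPL23B and RPL34A, at −0.25, −0.26, −0.28 and −0.29 on the log2 scale. RPL27B held 544, 583 and 547 CPM in wildtype and 499, 443 and 458 CPM in humanized cells, without overlap, and its other copy RPL27A had a value of −0.25 ± 0.08 that missed the threshold (adjusted p = 0.0711). RPL23B held 1079, 1250 and 1086 CPM and then 977, 920 and 920.3 CPM, and RPL23A changed by −0.35. RPL34A held 653, 727 and 650 CPM and then 565, 544 and 554 CPM, and RPL34B changed by −0.36.

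Genes with no second copy were called lower in 3 of 4 cases, against 3.88% of all genes tested. RPL28 held 2028, 2419 and 2002 CPM in wildtype and 1720, 1595 and 1610 CPM in humanized cells, a log2 fold change of −0.39 ± 0.07. RPL25 held 1809, 2067 and 1748 CPM and then 1579, 1473 and 1554 CPM, a change of −0.29 ± 0.07. RPL29 held 44.2, 51.7 and 49.7 CPM and then 36.3, 31.5 and 39.4 CPM. The value for RPL29 was −0.44 ± 0.13 and missed the threshold (adjusted p = 0.0673), though its groups did not overlap. The sums of copies were called lower in 17 of the 23 pairs and higher in 0.

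In the Luc7 triple mutant 32 of the 50 genes were called lower than in the same wildtype libraries and 0 higher, but 26.5% of all genes tested were called lower and 28.3% higher. The median log2 fold change was −0.21 and 49 of the 50 values were negative. The count fell to 15 without triple mutant replicate 3, to 21 without triple mutant replicate 2, to 15 when coding length and GC content entered as an offset, to 13 in 1 fit of all 7 groups and to 6 in limma on log2(TPM + 1). In the last of these the median of all genes lay 0.13 higher on the log2 scale than in the count fit, and several small changes given here turned sign.

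RPL18B (YNL301C) fell most. It held 258, 296 and 256 CPM in wildtype and 170, 157 and 167 CPM in the mutant, a log2 fold change of −0.71 ± 0.06 (SE, n = 3 against 3, adjusted p = 8.63e-06), without overlap. RPL7B (YPL198W) held 343, 361 and 311 CPM and then 210.3, 216 and 226 CPM, a change of −0.64 ± 0.06, while RPL7A (YGL076C) went from 2649, 2973 and 2524 CPM to 2452, 2433 and 2416 CPM, a change of −0.16 ± 0.06.

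Copies were called as moved apart in 2 of the 23 pairs, RPL7 among them, against 10% of the 60 pairs tested. The difference A minus B was 0.48 for RPL7 (adjusted p = 2.45e-05), and the pair was called whichever library was left out. RPL7A made up 88.5, 89.1 and 89.1% of its pair's TPM in wildtype and 92.1, 91.9 and 91.5% in the mutant, without overlap. The copies differ in 3.27% of coding bases, so the pair did not enter the test that was limited to pairs differing in at least 5% of bases.

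RPL28 and RPL43A completed the 4 strongest falls. RPL28 held 1742, 1681 and 1598 CPM in the mutant, a log2 fold change of −0.36 ± 0.07 from wildtype. RPL43A held 342, 325 and 394 CPM in wildtype and 240.0, 312 and 229 CPM in the mutant, a change of −0.44 ± 0.15 (adjusted p = 0.0246), and RPL43B had a value of −0.07 that did not pass. The called genes that fell least were RPL13A (YDL082W), RPL17B, RPL7A and RPL14B, at −0.15, −0.16, −0.16 and −0.19 on the log2 scale, with RPL13B, RPL17A and RPL14A at −0.35, −0.21 and −0.32. RPL13A held 858, 948 and 851 CPM in wildtype and 801, 789 and 800.0 CPM in the mutant. RPL17B held 825, 920.1 and 780.2 CPM and then 750.3, 745 and 771 CPM, and RPL14B 489, 539 and 503 CPM and then 467, 451 and 428 CPM, all without overlap. Over all genes tested 3766 of 6107 did not overlap, in either direction, in this comparison. The call of RPL17B was lost in 14 of 19 other settings, that of RPL7A in 13, that of RPL13A in 8 and that of RPL14B in 5.

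Among single-copy genes RPL25 fell in the mutant by 0.22 on the log2 scale (adjusted p = 0.0180), to 1690.1, 1592 and 1561 CPM. RPL29, at 34.8, 51.7 and 43.2 CPM in the mutant, and RPL39, at 39.0, 44.9 and 36.9 CPM, overlapped with wildtype. Their values of −0.16 ± 0.13 and −0.08 ± 0.10 did not pass. Sums of copies were called lower in 16 of 23 pairs.

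The triple mutant and the humanized strain at low density were also compared directly, beside the comparisons above, which share their wildtype libraries. Of the 50 genes 14 were higher and 2 lower in the triple mutant, against 17.8% and 16.1% of all genes tested. RPL39 differed most, at 25.1, 21.3 and 27.0 CPM in humanized and 39.0, 44.9 and 36.9 CPM in triple mutant libraries, a log2 fold change of 0.72 ± 0.10 (adjusted p = 0.0003475). RPL2A was higher by 0.43 ± 0.07 and RPL36A by 0.44 ± 0.08. The 2 lower genes were RPL7B at −0.49 ± 0.06 and RPL18B at −0.38 ± 0.06. The count of higher genes fell to 8 without humanized replicate 2 or without humanized replicate 3, and to 4 in 1 fit of all 7 groups.

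At high density 40 of the 50 genes were called lower in humanized than in wildtype cells and 0 higher, with a median log2 fold change of −0.54. Over all genes tested 12.6% were called lower and 16.0% higher. RPL36A was the strongest called fall, at 401, 406 and 298 CPM in wildtype and 148, 169 and 259 CPM in humanized libraries, a log2 fold change of −0.94 ± 0.22 (SE, n = 3 against 3, adjusted p = 0.0189). Humanized replicate 3 was well above the other humanized libraries in that gene but still below wildtype. RPL36B had a value of −0.72 ± 0.25 that missed the threshold.

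These libraries differed in how much of a short coding sequence Salmon could use. The median effective length of the 50 genes was 199, 175 and 154 bases in wildtype and 118, 126 and 197 bases in humanized libraries 1 to 3, and a description over the 50 genes gave a Spearman correlation of 0.67 between log2 fold change and coding length. At low density that correlation was 0.33. An offset for effective length left 26 called lower with a median of −0.38, and limma on log2(TPM + 1) left 16. The count fell to 15 without wildtype replicate 1, to 15 without humanized replicate 1 and to 21 without humanized replicate 2. The part of the effective length in the remaining calls was not tested further.

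RPL14B changed by −0.81 ± 0.11, from 486, 551 and 437 CPM to 256, 294 and 294 CPM, and RPL14A by −0.67 ± 0.12. RPL35B held 532, 539 and 401 CPM and then 226, 257 and 354 CPM, a log2 fold change of −0.81 ± 0.19, and RPL35A changed by −0.70. RPL33B held 353, 360.3 and 272 CPM and then 167, 178 and 259 CPM, a change of −0.71 ± 0.19, and RPL33A changed by −0.63. In these genes the wildtype library nearest to the humanized ones was replicate 3.

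The called genes that fell least were RPL6B, RPL16B, RPL7B and RPL40A, between −0.34 and −0.31 on the log2 scale. RPL6B held 582, 670 and 578 CPM in wildtype and 504, 515 and 457 CPM in humanized cells, and RPL6A changed by −0.47. RPL16B held 1372, 1609 and 1386 CPM and then 1169, 1227 and 1078 CPM, and RPL16A changed by −0.53. RPL7B held 314, 305 and 318 CPM and then 251, 265 and 228 CPM, with RPL7A at −0.40, and RPL40A held 877, 968 and 816 CPM and then 669, 680.4 and 748 CPM, with RPL40B at −0.58. Groups did not overlap in these genes, although RPL40A was 0.07 higher in limma on log2(TPM + 1). Over all genes tested 2815 of 6119 did not overlap, in either direction.

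For the genes with no second copy, RPL25 held 1660, 1907 and 1516 CPM in wildtype and 1188, 1250 and 1242 CPM in humanized cells, a log2 fold change of −0.47 ± 0.10. RPL28 held 2140.3, 2388 and 1909 CPM and then 1458, 1624 and 1593 CPM, a change of −0.46 ± 0.10. RPL39 held 54.5, 47.9 and 31.3 CPM and then 18.7, 20.9 and 45.4 CPM, and RPL29 78.4, 65.4 and 45.7 CPM and then 36.1, 42.7 and 69.4 CPM. Both overlapped, and their values of −0.65 ± 0.36 and −0.35 ± 0.27 did not pass. RPL43A had the lowest value of the 50, at −1.28 ± 0.79, and did not pass either, with humanized libraries at 65.0, 91.6 and 574 CPM. None of the 23 pairs was called as moved apart (diffSpliceDGE of edgeR, 3.33% of the 60 pairs called), 1 of the 23 having an unadjusted p under 0.05, and 20 of the 23 sums were called lower.

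Between densities, wildtype had 24 of the 50 genes called lower at high density and 0 higher, with a median log2 fold change of −0.24, against 22.7% and 20.9% of all genes tested. The count of 24 became 12 without wildtype low-density replicate 2, 13 without wildtype high-density replicate 1 and 12 without wildtype high-density replicate 3, and 37 with the offset for effective length. In humanized cells 39 were called lower and 0 higher, with a median of −0.41, against 26.7% and 27.7%. RPL16B was the lowest in wildtype at −0.54 and RPL20A in humanized cells at −0.62.

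Whether the difference between humanized and wildtype cells itself changed with density was tested as an interaction over those 4 groups. Density and experiment cannot be told apart in it, and the strains differed in OD600 at high density. Of the 50 genes 1 was called lower, RPL40B, and 0 higher, against 8.02% and 9.84% of all genes tested. At low density RPL40B held 729, 859 and 747 CPM in wildtype and 726, 651 and 675 CPM in humanized libraries, and the groups lay close without overlap. At high density it held 644, 731 and 639 CPM and then 442, 431 and 474 CPM. The difference of the effects was −0.39 ± 0.12 on the log2 scale (adjusted p = 0.0341). The number called ran from 0 to 13 over the 12 libraries left out in turn, with 13 without humanized high-density replicate 3, and was 22 when coding length and GC content entered as an offset.

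The other ribosomal protein genes give the setting for these values. Over all genes tested, 34.3% were called lower and 34.0% higher in the depletion. In humanized cells 3.88% were called lower at low and 12.6% at high density, and in the triple mutant 26.5%. In depleted cells 20 of the 21 tested RPL genes without an intron were called lower and 1 higher, with a median log2 fold change of −1.10, against −1.85 for the 50 genes. All 36 RPS genes with an intron were called lower, with a median of −1.91, and so were all 20 RPS genes without one, with a median of −1.53. In humanized cells at low density 3 of 22 RPL genes without an intron were lower (median −0.18), 30 of 36 RPS genes with one (median −0.34) and 3 of 20 RPS genes without one (median −0.20). In the triple mutant 14 of 22 RPL genes without an intron, 24 of 36 RPS genes with one and 13 of 20 RPS genes without one were lower, and the medians of the 4 lists lay between −0.22 and −0.20. At high density 15 of 22 RPL genes without an intron were lower in humanized cells (median −0.37), 27 of 36 RPS genes with one (median −0.47) and 7 of 20 RPS genes without one (median −0.41). RPL29, the gene of the 50 without an intron, stood at −1.23 in the depletion, above the median of the 50. RPL28, RPL20B and RPL40A, which have introns, stood at −1.23, −1.18 and −1.02 there. In humanized cells at low density RPL29 stood at −0.44, below the median of −0.35 for the 50. It stood at −0.16 in the triple mutant and at −0.35 at high density, above medians of −0.21 and −0.54.

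**Figure D5:**
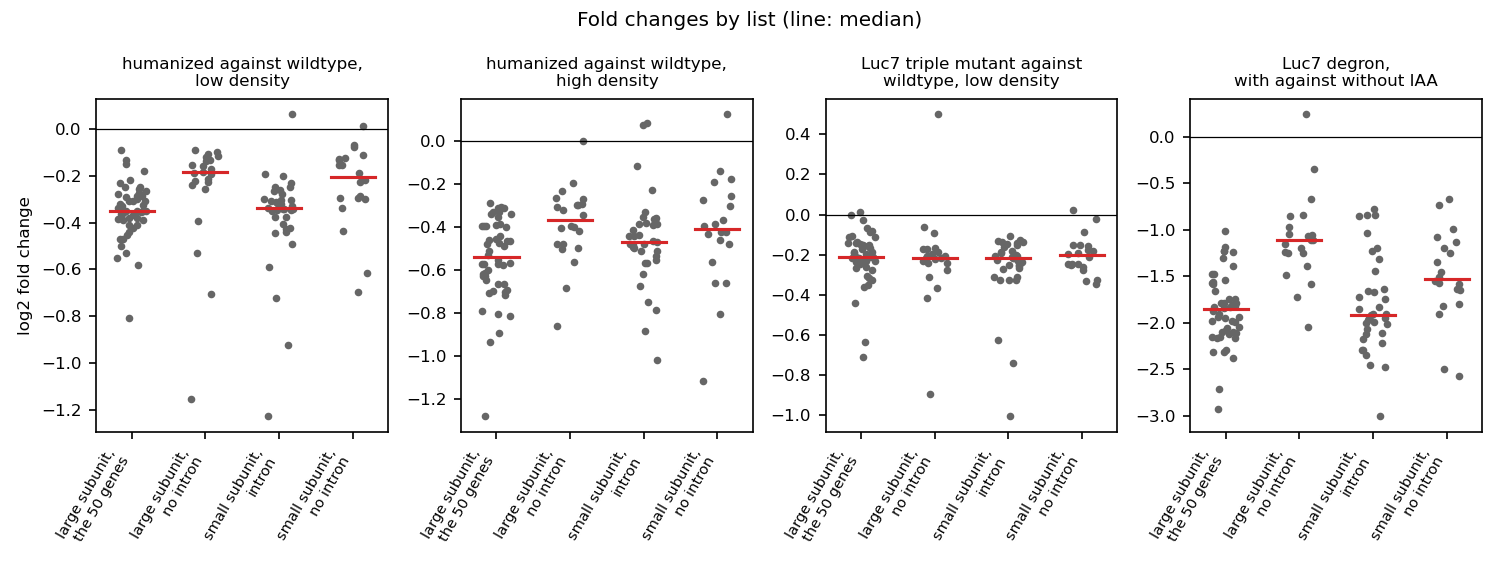
Log2 fold change (vertical axis, its own scale in each panel) of each tested gene of 4 lists, with the list median as a line. In the depletion the medians are −1.85 and −1.91 for the lists with introns and −1.10 and −1.53 for those without, and in the triple mutant all 4 lie between −0.22 and −0.20.

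Regulators of ribosomal protein gene transcription were described for 13 genes. In depleted cells 7 were called lower and 4 higher, against 34.3% and 34.0% of all genes tested. IFH1, a co-activator at these promoters, changed by −0.36 ± 0.07 on the log2 scale, and CRF1, a co-repressor that competes with it, by 0.60 ± 0.07. TOD6 and DOT6, repressors of ribosome biogenesis genes, changed by −0.81 and −0.79. Also called lower were HMO1, RAP1, TBF1 and FHL1, at −0.29, −0.26, −0.16 and −0.16. STB3, SCH9 and REB1 were called higher, at 0.42, 0.31 and 0.16. In humanized cells at low density 0 of the 13 were called by edgeR, against 3.88% of all genes tested called lower and 2.67% called higher. Of the 13, 2 had an unadjusted p under 0.05 in that test. In the triple mutant 3 were lower and 3 higher, against 26.5% and 28.3% of all genes tested, with DOT6 at 1.10 and TOD6 at −0.41. At high density 4 were higher in humanized cells, IFH1 at 1.32 among them, against 16.0% of all genes tested.

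Features of the introns were set beside the fold changes as a description only, since genes of a pair share sequence and all genes share the libraries. In the depletion the 41 genes with GTATGT in the first intron had a median log2 fold change of −1.90, and the 8 genes with another site one of −1.55, with a range from −2.71 (RPL43A, GTATGA) to −1.02 (RPL40A, GTATGC). RPL16A and RPL16B share GTACGT and stood at −2.31 and −1.30, while RPL27A and RPL27B, with the same site, stood at −1.56 and −1.93. RPL20A with GTGAGT stood at −1.47 and its copy RPL20B with GTATGT at −1.18. The ranges of both site classes overlapped widely. In humanized cells at low density the medians were −0.35 and −0.27. Of the 8 genes with another site 3 were called lower, against 3.88% of all genes tested. They were RPL16A at −0.35, RPL27B at −0.26 and RPL43B at −0.47. Not called there were RPL43A at −0.39, RPL16B at −0.27, RPL27A at −0.25, RPL20A at −0.22 and RPL40A at −0.13.

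In the triple mutant the medians of the site classes were −0.21 and −0.17. Among the 8, RPL43A, RPL20A (−0.23) and RPL40A (−0.21) were called lower, against 26.5% of all genes tested. RPL16B, RPL16A, RPL27A and RPL27B had values of −0.19, −0.15, −0.14 and −0.11 that did not pass. At high density the medians were −0.57 and −0.51, with RPL27B at −0.55, RPL20A at −0.49, RPL27A at −0.40 and RPL43B at −0.67, the last not called. Over the 49 genes with an intron, the Spearman correlation of log2 fold change with the length of the first intron was 0.21 in the depletion, 0.19 and 0.06 in humanized cells at low and high density and −0.34 in the triple mutant. With the number of bases of the splice site that match the U1 complement it was 0.11, −0.01, −0.01 and 0.14 in the same order. With the TPM of the control group it was 0.40 in the depletion over all 50 genes, where the control values also enter the fold change.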

How the data were processed

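Per the labels, RNA was extracted with hot phenol, treated with DNase and poly-A selected. The submitters' processing notes name cutadapt, Salmon 1.9 and the sacCer3 build. Read layout and strand are not stated in the labels, so antisense neighbours cannot be separated. The authors deposited, for each library, estimated counts and TPM over spliced coding sequences, so unspliced RNA was not analysed here. Estimated counts were rounded to whole numbers.

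Tests used edgeR 4.0.16 in R 4.3.3: filterByExpr (minimum count 10), TMM, quasi-likelihood tests, Benjamini-Hochberg adjustment over all genes tested. Low-density groups shared 1 fit, the high-density and degron groups had their own, and comparisons involving density used 4 groups. SE is that of the log2 fold change. The tests were tried on simulated counts with known changes. No library was a copy of another, at most 0.578% of genes having equal counts in any pair of libraries.

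The members and lists were chosen with earlier results of these data known. Named were genes without a second copy, the 4 lowest and 4 highest called fold changes in each comparison with a control, their other copies, called pairs and genes with another splice site. Alternatives were DESeq2 1.42.0 and its size factors, limma 3.58.1 on log2(TPM + 1), TMM without ribosomal genes, no filter, other groupings, a replicate block, a length and GC offset and libraries left out. The offset for effective length was chosen after seeing the data. Values of 1 gene and its pair are not reported here.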

Additional observations from a re-analysis of the deposited data

Results flagged for a closer look

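RPL40B stood out because its difference between humanized and wildtype cells was called as changed between densities. In the interaction test of edgeR the change, high minus low, was −0.39 on the log2 scale (adjusted p = 0.0341). Density and experiment cannot be told apart, and the strains differed in OD600 at high density. Of the 50 genes 1 was called lower, against 8.02% of all genes tested. The call was lost in 8 of 21 other settings, among them the offset for effective length. Over all 21 the change ran from −0.48 to −0.19. With groups of 3 libraries, single libraries were not tested as outliers.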

How the results depend on the processing

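In the depletion all 50 genes were lower and 0 higher under every alternative, and 4 to 11 pairs were called over the libraries left out. In humanized cells at low density the genes called lower numbered 19 with the offset for effective length, 13 in limma on log2(TPM + 1), 8 in 1 fit of all 7 groups, and 12 to 45 over libraries left out, and called pairs numbered 0 among pairs differing in 5% of bases and 0 to 1 over libraries left out. At high density they numbered 26 with that offset, 16 in limma and 15 to 43 over libraries left out. In the triple mutant they numbered 15 with the length and GC offset, 6 in limma, 13 in 1 fit of all groups and 15 to 36 over libraries left out, with 0 pairs among those differing in 5% of bases. Against humanized cells 4 were higher in 1 fit of all groups, and 8 to 20 over libraries left out. Between densities in wildtype, 38 were lower with the length and GC offset, 37 with that for effective length, 12 with only the 2 groups compared and 12 to 31 over libraries left out, when 0 to 1 were higher. The interaction called 22 with the length and GC offset, 0 with that for effective length, 3 with DESeq2, 2 in 1 fit of all groups and 0 to 13 over libraries left out. Signs turned for RPL40A in humanized cells (0.0516 at low and 0.0696 at high density in limma, 0.0103 at low density with the length and GC offset). In the triple mutant they turned in limma for RPL13A (0.0118), RPL16A (0.0025), RPL17B (0.0105), RPL27B (0.0166), RPL39 (0.0057), RPL43B (0.0365) and RPL7A (0.0173), with the length and GC offset for RPL27B (0.0010) and RPL43B (0.0388), and for RPL43B without wildtype replicate 2 (0.0020) or triple mutant replicate 3 (0.0377), its values running from −0.149 to 0.0377 over libraries left out. The cause was not tested, except that limma shifted the median of all genes by 0.13 to 0.27 in 6 comparisons.

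Whether replicate numbers pair the libraries was not settled. In no comparison did the deviations from the group mean correlate above 0.1 in all 3 same-numbered pairs. Deviations from a mean of 3 libraries depend on each other, so this does not exclude pairing. In wildtype between densities numbers 2 and 3 stood at 0.592 and 0.409, and number 1 at −0.022. With the replicate block 26 genes were lower at high density and 0 pairs were called in humanized cells at low density, and 28 genes were lower there. The copies of RPL7 were not called in the depletion under the block (adjusted p = 0.0761).

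The effect of depth was not tested. Short coding sequences such as RPL39 and RPL43A have few usable positions, and near-identical copies divide reads.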
